A study of Drosophila melanogaster with 4 samples.

Results

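The nuclear genes of the mitochondrial respiratory chain were followed in single eggs and embryos of Drosophila melanogaster. Members were all genes whose symbol starts with ND-, UQCR-, COX and a digit, or ATPsyn in the raw count files or in the series tables. This rule took 75 of the 17807 genes counted, 40 of them named for complex I, 8 for complex III, 12 for complex IV and 15 for ATP synthase, or complex V. COX7B stood in the raw counts as CG7630 and was joined through the synonyms of the reference, and the other 74 carried their symbol there. A subunit's symbol followed by L, L1 or L2 marks 16 paralogs, such as COX4L, which leaves 59 genes for the standard subunits. All 75 were placed on the BDGP6.54 annotation, release 115, with 12 on the X chromosome and 2 on chromosome 4.

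The respiratory chain moves electrons from NADH through complex I, ubiquinone, complex III and cytochrome c to complex IV, which reduces oxygen. The proton gradient built on the way drives ATP synthase, a rotary enzyme with a membrane ring, a central stalk and a catalytic head. Complexes I, III, IV and V mix subunits of the mitochondrial genome with subunits encoded in the nucleus. The egg receives mitochondria and messenger RNA from the mother, and in the early fly embryo maternal RNA is cleared while the zygotic genome becomes active.

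Embryos came from virgin DGRP_737 mothers and DGRP_352 fathers, both inbred lines, so that every embryo is a hybrid without mutation or treatment and its parental alleles can be told apart. Parents lived at 25 °C and 60% humidity under a 12-h light-dark cycle, mated 3 to 4 days after eclosion, and embryos were collected at 0 to 3 h. Unfertilized eggs carry no paternal genome, and the labels name no separate line for their mothers. Polyadenylated RNA was counted by a small-volume CEL-Seq2 protocol, in which each molecule gives a tag near its 3′ end with a unique molecular identifier (UMI). Levels are UMIs scaled to 1000000 gene UMIs (CPM), a share of the RNA of that individual, and were not divided by gene length since a molecule gives 1 tag.

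The authors' pseudotime order holds 245 embryos and 8 eggs from 4 multiplexed libraries, and single individuals served as replicates. Embryos were split along this order into 4 consecutive groups, Q1 to Q4, of 61, 61, 62 and 61. Total UMIs per individual ran from 163287 to 2069031, and the group medians fell from 907317 to 568460. UMIs per spike-in UMI fell from a median of 1902 in Q1 to 1178 in Q4, so levels are also given per spike-in UMI. Spike-in UMIs numbered 19 to 1095 per individual, which makes that scale noisy. In whole embryos, fewer cells with a transcript and less transcript per cell cannot be told apart. The 10 early zygotic marker genes summed to 16.7 to 29.5 CPM in the 8 eggs and to 2971 to 5037 CPM in Q4. Of 7 eggshell genes of the ovary, 6 were at 0 in all 8 eggs and their sum reached at most 0.702 CPM. The first digit of the embryo names, which the labels do not explain, was 1 in all 61 embryos of Q1 and 2 in 56 of 61 of Q2, while Q3 held 1, 29 and 32 and Q4 held 7, 14 and 40 embryos of digits 1, 2 and 3.

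Eggs held transcripts of all 4 complexes. Complex I members together made up 3431 ± 314 CPM (SD, n = 8), complex III 1679 ± 301, complex IV 2624 ± 315 and ATP synthase 6219 ± 607. The whole set was 1.40% of the UMIs of an egg. Within complex I, ND-13A (558 ± 63.5 CPM) and ND-MLRQ (488 ± 96.6 CPM) led. ND-13A is the fly counterpart of the mammalian accessory subunit NDUFS6, and ND-MLRQ that of NDUFA4, which in mammals is placed with complex IV. UQCR-Q, a small subunit of complex III, gave 69.6% of the UMIs of that complex in eggs, with 825 CPM in the lowest egg, 1115 at the median and 1617 in the highest. In complex IV, COX5B (655 ± 111 CPM), COX7A (433 ± 77.5 CPM) and COX6B (368 ± 72.6 CPM) were highest. ATP synthase was led by ATPsynCF6, a part of the peripheral stalk, at 1797 ± 231 CPM and ATPsynC, the subunit of the proton-carrying membrane ring, at 1620 ± 382 CPM. The catalytic subunit ATPsynbeta followed at 755 ± 105 CPM.

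**Figure D1:**
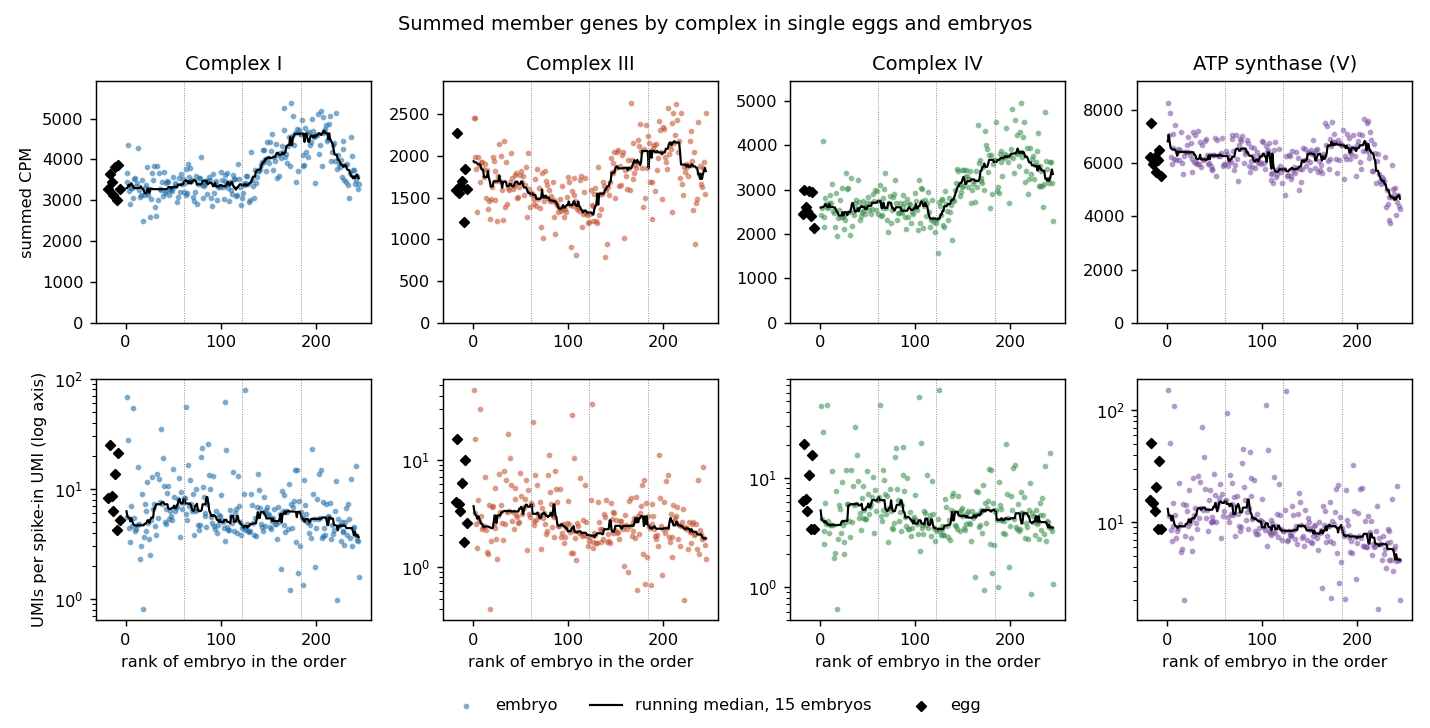
Summed member genes of each complex in 8 eggs (diamonds) and 245 embryos by rank in the authors' order (points), with a running median of 15 embryos and dotted lines between Q1 to Q4. The upper row gives the share of UMIs in CPM and the lower row UMIs per spike-in UMI on a log axis. In CPM complexes I, III and IV are higher in Q4 than in Q1, while per spike-in UMI no complex is.

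Eggs were compared with the first 61 embryos. The authors' order, made from the same expression values, holds the 8 eggs at places 2 to 107, those at 79 and 107 beyond these embryos. The comparison is thus not independent of that placement, and few calls cannot show that the maternal supply is alike. Among 57 members that passed the filter on low counts, edgeR's quasi-likelihood test with library as a covariate called 0 higher and 0 lower in the 8 eggs of the order. Over all 6004 genes tested, 0.899% were called higher and 1.92% lower in eggs. An unadjusted p under 0.05 was reached by 8 of the 57 members and by 1017 of all 6004 genes. DESeq2's Wald test called 1 member, UQCR-C2, and 193 of all genes lower. The 3 lowest fold changes in eggs belonged to complex III, and values for UQCR-C2 (log2 fold change -0.43, SE 0.14, edgeR adjusted p = 0.0672) and UQCR-6.4 (-0.34, SE 0.12, edgeR adjusted p = 0.116) did not pass the test. UQCR-C2, a large matrix-facing core protein of complex III, ran from 7.19 through 54.6 to 91.3 CPM in eggs and from 11.3 through 81.4 to 123 CPM in Q1. The lowest egg lay below the lowest embryo of Q1, and otherwise the ranges overlap. That egg was the shallowest of the 8, with 278007 UMIs, stood at place 107 and has the first digit 2 in its name. The names of 5 of these eggs have the digit 1, as in all Q1 embryos, and 3 have the digit 2. UQCR-C2 had a median of 76.8 CPM in the eggs of digit 1 and 32.4 in those of digit 2. UQCR-6.4 stood at 158 CPM in the former and 64.7 in the latter, and maternal markers summed to 2639 to 3607 CPM against 1673 to 2061.

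The result depends on which eggs enter. The barcode table lists 34 eggs, and 18 that are not in the order reach the lowest depth of the order, with a median of 450527 UMIs. With these added, 28 members were called higher and 16 lower than in the first 61 embryos, where 41.2% of all 5783 genes tested were called higher and 41.4% lower. In the 18 further eggs UQCR-C2 stood at a median of 2.41 CPM, between 0 and 56.2. UQCR-6.4 was at 20.8 CPM at the median there, against 143 in the 8 eggs of the order and 64.7 in the 3 of these with digit 2, and ND-13B, the fly counterpart of the accessory subunit NDUFA5, at 2.93 against 25.2. COX7A stood at 94.5 CPM against 462, and ATPsynC at 610 against 1692. ND-51, which binds the flavin that accepts electrons from NADH, stood at 33.8 CPM against 166. Other members were as high or higher in these eggs: ND-MLRQ had a median of 700 CPM against 493 and ATPsynCF6 2480 against 1731. On the scale of spike-ins both fell behind the eggs of the order, ND-MLRQ at 0.704 UMIs per spike-in UMI against 1.18 and ATPsynCF6 at 2.76 against 4.29. Early zygotic markers summed to a median of 32.1 CPM in the further eggs, with 333 in the highest, and maternal markers to 1451 CPM against 2727 in the eggs of the order. The names of the further eggs have the digit 1 in 3, 2 in 7 and 3 in 8, and their UQCR-6.4 medians were 22.6, 21.3 and 13.6 CPM in that order. Whether these eggs differ in age or condition was not tested, since the labels give neither.

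**Figure D2:**
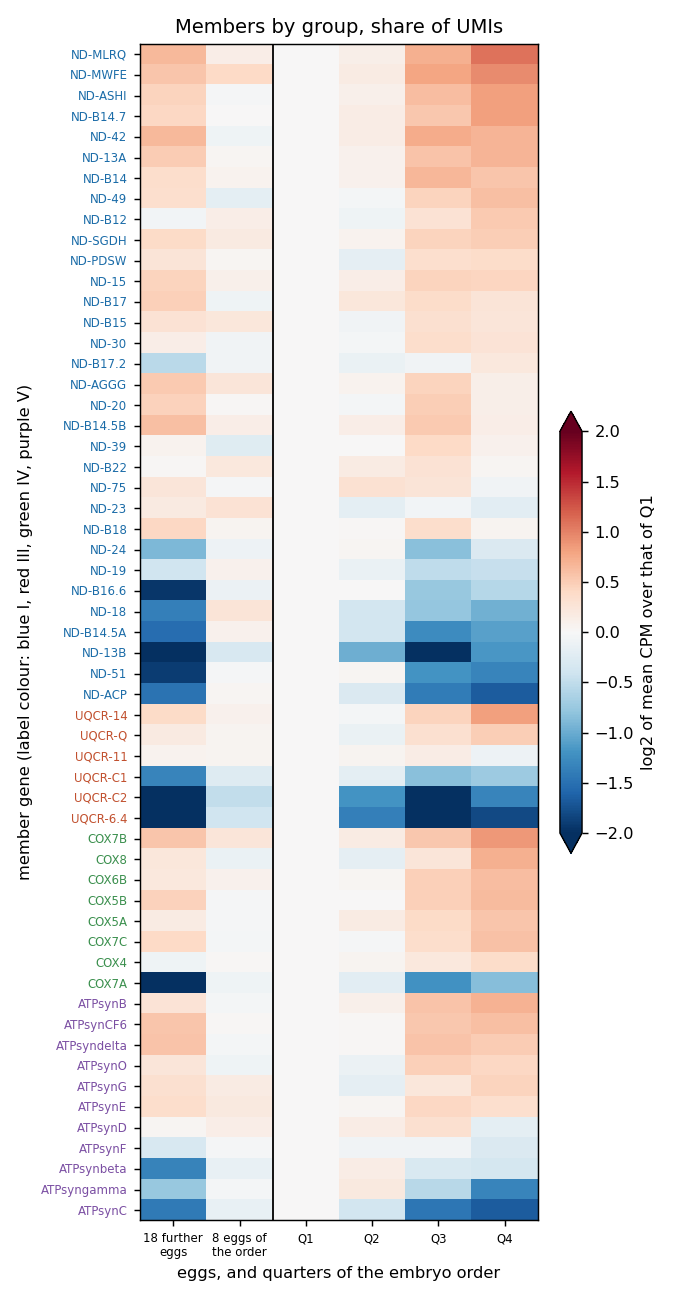
The 57 members that passed the filter, grouped by complex (label colour) and sorted by their change along the order. Colour gives the log2 of the mean CPM over the mean of Q1, cut at 2 in both directions. UQCR-C2, UQCR-6.4 and ND-13B are the darkest blue rows in Q3, and in the 18 further eggs they are among the darkest, with COX7A and ND-B16.6.

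Along the order the share of UMIs that went to complex IV rose most. Its members summed to 2638 ± 351 CPM (SD, n = 61) in Q1 and 3635 ± 546 (n = 61) in Q4. Complex I went from 3331 ± 334 to 4196 ± 545 CPM, complex III from 1717 ± 268 to 1957 ± 359, and ATP synthase from 6428 ± 545 to 5900 ± 998 CPM. Individuals of Q1 and Q4 overlap in each complex. Complex I was higher in Q4 in each of the 4 libraries, by 0.21 to 0.44 on the log2 scale of the mean CPM, and complex IV by 0.33 to 0.58. Complex III differed by -0.01 in library 2 and by 0.18 to 0.29 in the other libraries, and ATP synthase by -0.27 to -0.02. For complexes I, III and IV the direction holds only as a share of UMIs, while the sum of ATP synthase was lower on both scales. Within that sum, ATPsynC alone went from a mean of 1800 CPM in Q1 to 567 in Q4. Per spike-in UMI the median of complex I went from 6.57 to 4.97, of complex III from 3.20 to 2.27, of complex IV from 5.12 to 4.11 and of ATP synthase from 11.5 to 6.63.

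The level did not change evenly. In 8 consecutive windows of 30 or 31 embryos, complex III had medians of 1821, 1638, 1467, 1383, 1619, 1907, 2089.5 and 1871 CPM, so that it dipped in the fourth window and was highest in the seventh. Complex IV ran from 2586 CPM in the first window to 3788 in the seventh and 3421 in the last. ATP synthase stood at 6427 CPM in the first window, 6571 in the seventh and 5132 in the last. Of the 57 members, 26 had their highest window median of CPM in the seventh window and 1 in the eighth, with no share over all genes beside it. Per spike-in UMI the median of each complex was highest in the second window. For complex I it was 4.91 in the first window, 7.37 in the second and 5.39 in the seventh, and for complex III 2.66, 3.51 and 2.37. Complex IV had 3.98, 5.82 and 4.51, and ATP synthase 9.88, 13.7 and 7.54. Complexes I and IV were thus lower in the first window than in the seventh on this scale, and complex III and ATP synthase higher.

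Genes were then tested between Q1 to Q4 in 1 edgeR fit over all embryos, with library as a covariate. Since the authors derived their order from these same expression values, Q1 to Q4 are not independent of the tested counts. An order rebuilt from 5826 other genes, without any member, correlated with that of the authors at a Spearman's rho of 0.903. Between Q2 and Q1, 5 members were called higher and 14 lower, against 21.7% and 22.3% of all 6062 genes tested. Between Q3 and Q2, 42 were called higher and 13 lower, against 46.0% and 45.8%. Between Q4 and Q3, 34 were called higher and 5 lower, against 46.3% and 38.3%. With spike-ins as the measure of library size these steps called 0 members higher and 4 lower, then 0 and 18, then 2 and 20, against 1.70% and 12.0%, 7.89% and 57.8%, and 18.1% and 51.9% of all genes. Between Q4 and Q1, 44 were called higher and 11 lower, against 43.6% and 48.4%. With spike-ins, this comparison called 0 members higher and 41 lower, against 10.5% and 76.3% of all genes.

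The scaling sets these directions, because it moves all genes together. The median log2 fold change of all genes between Q4 and Q1 was -0.10 with TMM, the scaling of the main fit, and -0.42 with relative log expression (RLE). It was -0.58 with library sizes alone, -0.46 after a correction for UMI collisions and -1.49 with spike-ins. The median of the members was 0.75 with TMM and -0.62 with spike-ins. Relative to the median of all genes it lay 0.84 above with TMM and 0.87 above with spike-ins. Thus 33 members were called higher under the 4 scalings without spike-ins, of which 16 were not called and 17 were called lower with spike-ins. Over the 6061 genes tested under every scaling, 31.7% met the same rule. A group of 11 members was called lower under all 5 scalings, against 48.5% of all genes, and 13 changed call with the scaling.

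**Figure D3:**
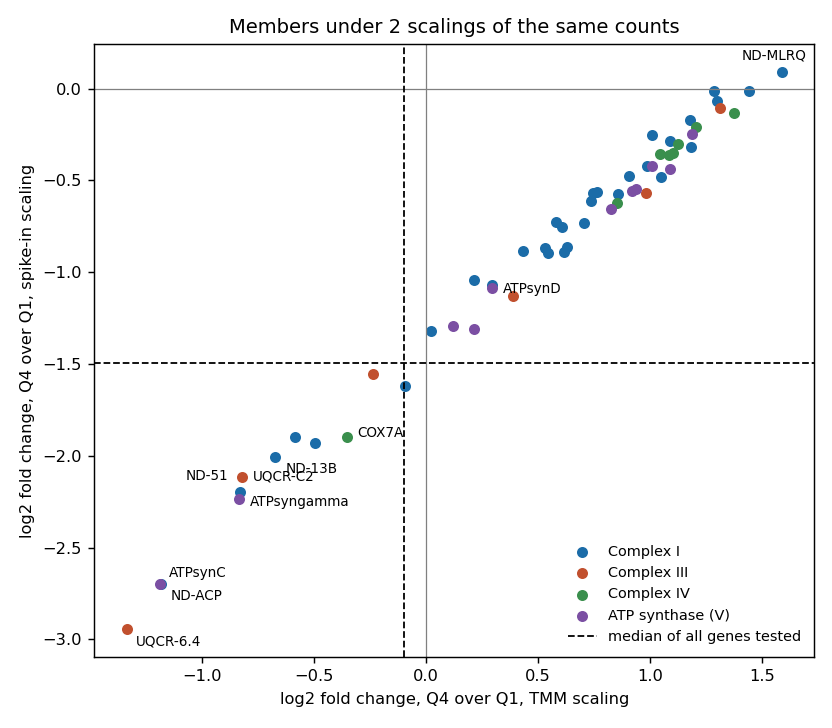
Log2 fold change of the 57 tested members between Q4 and Q1 with TMM scaling (horizontal axis) and with spike-in scaling (vertical axis), coloured by complex. Dashed lines mark the median of all genes tested, at -0.10 and -1.49. The group from UQCR-6.4 to COX7A lies below 0 on both axes, and the members at the upper right are above 0 with TMM and near 0 with spike-ins.

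In complex I, 18 members were called higher under the 4 scalings without spike-ins, 5 were lower under all 5, and 9 depended on the scaling. Of its 7 nuclear core subunits, most of which bind the flavin or iron-sulfur clusters, 3 were in the first group (ND-49, ND-30 and ND-20), ND-51 was in the second, and ND-75, ND-23 and ND-24 were in the third. ND-MLRQ rose most with TMM. It ran from 264 through 427 to 742 CPM in Q1 and from 646 through 936 to 1333 in Q4, with 52 of 61 late embryos above every early one. Its log2 fold change was 1.59 with TMM (SE 0.07, edgeR adjusted p = 2.44e-58) and 0.09 with spike-ins (edgeR adjusted p = 0.641). ND-MWFE, the counterpart of NDUFA1, had 1.44 with TMM and -0.014 with spike-ins, and ND-ASHI, the counterpart of NDUFB8, 1.30 and -0.068. About 15.2% of the exon bases of ND-MWFE overlap another gene on the same strand. ND-13A, the highest in eggs, reached a median of 874 CPM in Q4 against 543 in Q1, with log2 fold changes of 1.18 with TMM and -0.32 with spike-ins. ND-B16.6, the counterpart of GRIM19, followed these in eggs and had a median of 165 CPM late against 247 early; its log2 fold change of -0.09 with TMM was not called, and that of -1.62 with spike-ins was.

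ND-ACP, the mitochondrial acyl carrier protein, and ND-51 fell. ND-ACP (FBgn0011361, chromosome 3L, 1329949 to 1331631) ran from 76.9 through 166 to 268 CPM in Q1 and from 20.3 through 54.5 to 78.9 in Q4. In 59 of 61 late embryos it was below every embryo of Q1. Its log2 fold change was -1.18 with TMM (SE 0.05, edgeR adjusted p = 1.50e-61) and -2.70 with spike-ins. ND-51 (FBgn0031771, chromosome 2L, 6060842 to 6062757) had a median of 167 CPM early and 62.03 late, with 52 of 61 late embryos below all early ones. Its log2 fold change was -0.83 (SE 0.07, edgeR adjusted p = 1.66e-28) with TMM. The fall lay between Q2 and Q3, with -1.02 there (SE 0.07, edgeR adjusted p = 1.54e-37). ND-13B (FBgn0047038, chromosome 3L, 10693184 to 10694108) differed in course. Its window medians were 28.0, 28.8, 17.6, 11.1, 4.54, 5.63, 10.9 and 15.2 CPM. Q2 was lower than Q1 by a log2 fold change of -0.94, Q3 lower than Q2 by -1.16, and Q4 higher than Q3 by 1.43 with TMM and 1.03 with spike-ins. These comparisons share embryos and are not independent. With embryos in the rebuilt order, the last step of ND-13B was 0.10, so its size depends on the order. Within Q3 its median was 5.63 CPM in the embryos of name digit 2 and 4.68 in those of digit 3, and within Q4 it was 19.4, 14.3 and 11.7 for digits 1, 2 and 3. ND-B14.5A and ND-18, the counterparts of NDUFA7 and NDUFS4, had -0.59 and -0.50 over the whole order with TMM.

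The members of complex III did not move together. The core proteins UQCR-C1 and UQCR-C2 were lower in Q4 than in Q1 under all 5 scalings, with log2 fold changes of -0.24 and -0.82 with TMM. UQCR-Q and UQCR-14, the counterpart of the ubiquinone-binding subunit UQCRB, had 0.98 and 1.31 with TMM and -0.57 and -0.11 with spike-ins. The whole exon length of UQCR-14 is covered by CG32576 on the opposite strand, so its counts are uncertain unless the counting used strand, which no label states. UQCR-Q alone held 65.2% of the complex III UMIs in Q1 and 80.1% in Q4. UQCR-C2 (FBgn0250814, chromosome 3L, 16584124 to 16586111) had window medians of 83.7, 76.2, 41.1, 20.4, 9.61, 19.0, 28.7 and 35.3 CPM. It was lower in Q2 than in Q1 by -1.20 (SE 0.11, edgeR adjusted p = 2.46e-22) and lower in Q3 than in Q2 by -0.99. Q4 was above Q3 by 1.38 with TMM (SE 0.13, edgeR adjusted p = 8.72e-22), by 0.98 with spike-ins and by 0.51 in the rebuilt order. UQCR-6.4, a small subunit, ran from 68.8 through 169 to 329 CPM in Q1 and from 16.5 through 45.2 to 159 in Q4. It had the lowest log2 fold change of the 57 members over the order, with -1.33 (SE 0.09, edgeR adjusted p = 4.72e-38) with TMM and -2.94 with spike-ins. About 40.5% of its exon bases are overlapped by POSH on the opposite strand.

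In complex IV, 7 of 8 tested members were higher in Q4 under the 4 scalings without spike-ins and 1, COX7A, was lower under all 5. COX7B had the largest difference with TMM, at 1.37 (SE 0.07, edgeR adjusted p = 7.00e-54), and -0.13 with spike-ins (edgeR adjusted p = 0.512). It ran from 115 through 186 to 381 CPM in Q1 and from 230 through 366 to 615 in Q4. COX5B, which had a median of 672 CPM early and 1015 late, had 1.12 with TMM and -0.30 with spike-ins. COX8 had 1.21 and -0.21, and the step from Q3 to Q4 was 0.62 with TMM. With spike-ins, 2 members of complex IV were called lower in Q4 and none higher. COX7A (FBgn0040529, chromosome 3R, 8339944 to 8341043) stood at 445 CPM at the median of Q1 and 245 in Q4, and 45 of 61 late embryos were below every early one. Its log2 fold change was -0.35 with TMM and -1.90 with spike-ins.

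**Figure D4:**
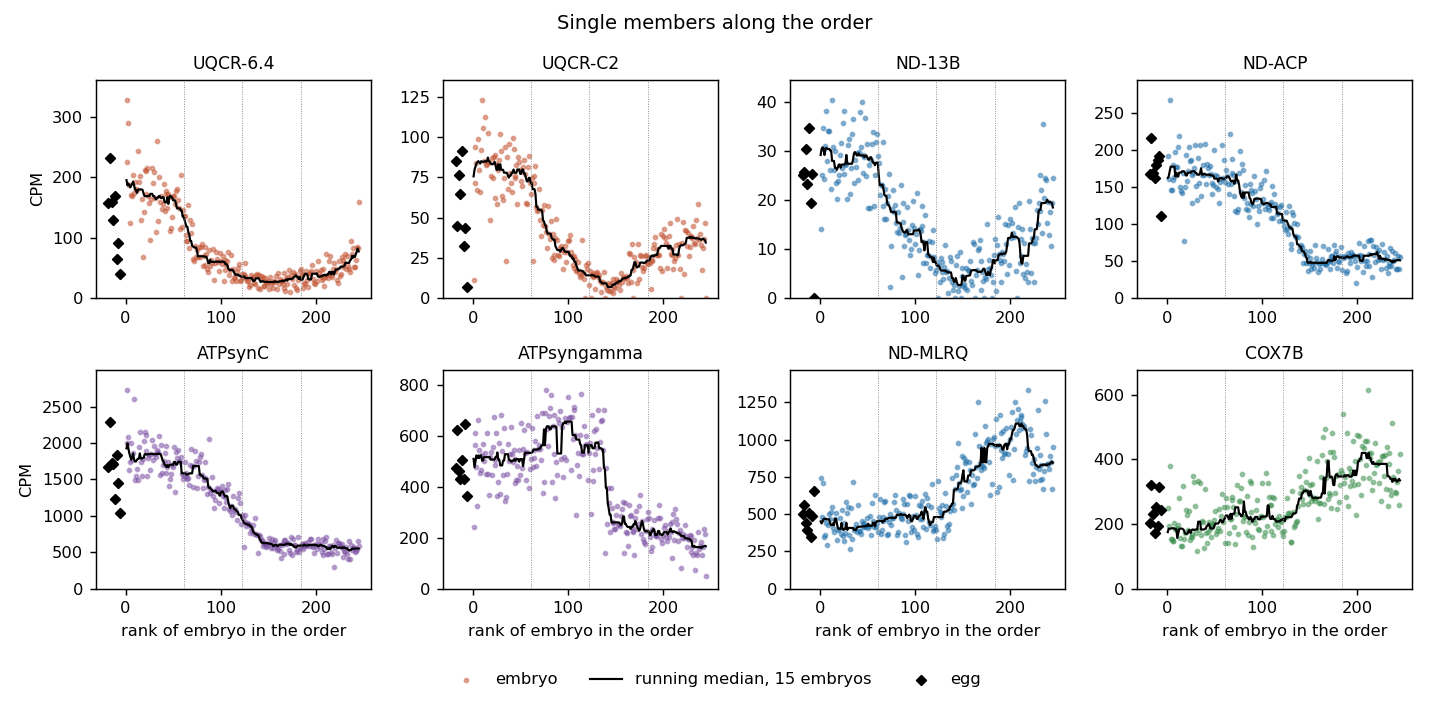
CPM of 8 members in each egg (diamonds) and embryo (points) by rank in the order, with a running median of 15 embryos and dotted lines between Q1 to Q4. ATPsynC and ND-ACP decline and then stay low, ATPsyngamma drops at the start of Q3, UQCR-C2 and ND-13B pass through a low and are higher again at the end, and ND-MLRQ and COX7B are higher late.

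Members of ATP synthase differed in direction with TMM. Of 11 tested, 9 were called higher in Q4 than in Q1 and 2 lower, against 43.6% and 48.4% of all genes. With spike-ins 0 were called higher and 10 lower, against 10.5% and 76.3%. Under the 4 scalings without spike-ins 6 were higher, while 2 were lower under all 5 and 3 depended on the scaling. ATPsynC (FBgn0039830, chromosome 3R, 31216145 to 31219630) ran from 1322 through 1784 to 2724 CPM in Q1 and from 299 through 582 to 708 in Q4, with all 61 late embryos below all early ones. Its log2 fold change was -1.19 with TMM (SE 0.04, edgeR adjusted p = 1.54e-81), -1.83 with UMI collision correction and -2.70 with spike-ins. Its share of the ATP synthase UMIs went from 28.0% to 9.60%, and that of ATPsynCF6 from 27.5% to 45.3%. ATPsynCF6 had a median of 1745 CPM early and 2718 late, and log2 fold changes of 1.09 with TMM and -0.44 with spike-ins. ATPsyngamma (FBgn0020235, chromosome 3R, 29747704 to 29749163), the rotor shaft of the central stalk, was higher in Q2 than in Q1 by 0.20 with TMM, which was not called with spike-ins. It then fell by 0.52 and by 0.51 in the next steps, to a median of 206 CPM from 509 in Q1. Over the order its log2 fold change was -0.83 with TMM and -2.23 with spike-ins. ATPsynbeta was 0.12 with TMM and -1.29 with spike-ins, and its median CPM went from 837 to 652. The peripheral stalk member ATPsynO, the oligomycin sensitivity subunit, was higher in Q3 than in Q2 by 0.93 with TMM and 0.09 with spike-ins, and the value with spike-ins was not called. The lower values of ATPsynD, ND-B14.5B, ND-20 and ND-AGGG in Q4 against Q3, between -0.32 and -0.14 with TMM, turned to higher in the rebuilt order.

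Spearman's rho of CPM with the rank was at least 0.5 in 18 of the 57 members and at most -0.5 in 14, against 21.8% and 39.1% of 7377 genes. ATPsynC had the lowest rho, at -0.91, followed by ND-ACP at -0.86, and ND-MLRQ the highest at 0.78. In the authors' deposited normalized values 1 member was at 0.5 or more, ND-MLRQ, and 17 were at -0.5 or less. Of all 7170 genes there, 999 and 3762 were. Per spike-in UMI 0 members were at 0.5 or more and 14 at -0.5 or less, against 632 and 3432 of 7377 genes.

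The paralogs were almost silent. Of the 16, 8 had 0 UMIs among 194178446 in the order, which allows up to 0.0154 CPM for each at 3 counts, a limit for counting error only. The other 8 held 104 UMIs together, with 47 for ATPsynepsilonL and 14 each for COX7AL and ND-51L1. No paralog had a UMI in more than 29.5% of the individuals of Q1 to Q4 or of the eggs. Among standard subunits ND-B8 had 1 UMI and ND-MNLL 29. All exon bases of ND-MNLL lie within CG45089 on the same strand, so that reads of both genes may not have been assigned to it.

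Chain genes outside the naming rule gave mixed values. Of 12 tested, 7 were called higher in Q4 than in Q1 with TMM and 4 lower, and with spike-ins 0 were higher and 9 lower. Cyt-c1, the cytochrome of complex III, had 1.38 with TMM and -0.06 with spike-ins, and cype, the counterpart of COX6C, 1.60 and 0.14. Of the succinate dehydrogenase subunits of complex II, SdhA and SdhD had -1.28 and -1.32 with TMM and -2.68 each with spike-ins. SdhC had 0.13 with TMM, unlike SdhA and SdhD, and -1.27 with spike-ins, where SdhA, SdhC and SdhD were all lower. The remaining subunit, SdhB, was also tested and is not described here. The ATP synthase alpha subunit blw went from 1189 to 578 CPM in the mean and fell by 0.56 with TMM. Of 13 tested RNAs of the mitochondrial genome, 13 were called higher with TMM, with a median of 1.21, and 5 were called lower with spike-ins. These RNAs reach counts near the UMI ceiling, with up to 4092 for mt:lrRNA, and their differences are compressed.

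Of 10 tested genes of mitochondrial RNA and DNA synthesis, 3 were called higher and 6 lower with TMM, and 0 and 8 with spike-ins. The coactivator srl, the fly PGC-1, went from 297 ± 30.3 CPM (SD, n = 61) in Q1 to 24.6 ± 17.6 (n = 61) in Q4. Its log2 fold change was -3.12 with TMM (SE 0.14, edgeR adjusted p = 1.04e-57) and -4.69 with spike-ins. Ets97D, the fly GABP alpha, had -1.64 and the mitochondrial RNA polymerase -2.76 with TMM. Of 17 genes of the citric acid cycle and pyruvate dehydrogenase, 7 were called higher and 9 lower with TMM, and 0 and 15 with spike-ins. These counts lie near the shares of all genes, 43.6% higher and 48.4% lower with TMM. Mdh2 and Fum1, malate dehydrogenase and fumarase, had -4.49 and -3.29 with TMM and were lower with spike-ins too. The adenine nucleotide carrier sesB was at 1.21 with TMM and -0.18 with spike-ins. For comparison, 31 of 71 tested mitochondrial ribosomal protein genes were called higher and 28 lower with TMM, with a median of -0.01, and 0 and 67 with spike-ins. Of 18 tested vacuolar ATPase genes 5 were called higher and 13 lower with TMM, with a median of -0.66, and 2 and 16 with spike-ins.

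Parental alleles could be read for 18 members in the deposited allele table, 8 of complex I, 8 of ATP synthase and 1 each of complexes III and IV. These are normalized values without a stated unit, so their depth is unknown. In the 61 embryos of Q4 the maternal value was higher than the paternal in all 18 by a sign-flip permutation test over embryos with 100000 resamples, against 70.1% of 2062 genes tested. The paternal value was higher in 0 members, against 9.02% of genes, and in 0 at an unadjusted p under 0.05. In 17 of 18 the p was 1e-05, the smallest these permutations can give. The paternal share of the summed values ran from 1.18% for ATPsynCF6 to 30.5% for ATPsynD. All 18 shares were below 33.1%, the median of all genes tested, and the median of the 15 autosomal members was 10.7%, against 35.7% for 1752 autosomal genes. The 3 X-linked members were at 7.33% to 10.9%, against a median of 21.5% for 310 X-linked genes, where sons inherit no paternal allele.

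In eggs, which have no paternal genome, the paternal share summed over the 15 autosomal members was 0.331% ± 0.173 (SD, n = 8). It was 0.512% ± 0.195 (n = 61) in Q1, 0.431% ± 0.215 (n = 61) in Q2, 0.779% ± 0.583 (n = 62) in Q3 and 4.72% ± 3.77 (n = 61) in Q4, where single embryos ran from 0.653% to 18.5%. ATPsynCF6, with a mean maternal value of 902 in Q4 and a share of 1.18%, weighs most in this sum. The median late share of these 15 members taken singly was 10.7%. ND-SGDH, an accessory subunit of complex I, had the next highest late share after ATPsynD, at 25.3%, with 1.70% in eggs. ND-51 followed at 22.6%, with 0.605% in eggs and 27.0% in the library with the highest value. ATPsynF had 17.8% and ND-B14 16.9%. At the low end stood ATPsynG at 1.91%, ND-13A at 2.64%, UQCR-Q at 3.85% and ATPsynO at 4.62%. Some of these lie near the floor. The paternal value was 0 in 49 of 61 late embryos for ND-13A, in 47 for ATPsynO and in 32 for ATPsynG, but in 5 for UQCR-Q. The share of ATPsynD is less certain, since it was 15.4% in eggs on a mean maternal value of 1.38 and between 22.8% and 53.3% in the 4 libraries. Without library 1, which gave 53.3%, it was 26.2%. In the last 30 embryos it was 36.8%, where the difference between the alleles did not pass the test (permutation test, adjusted p = 0.169).

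**Figure D5:**
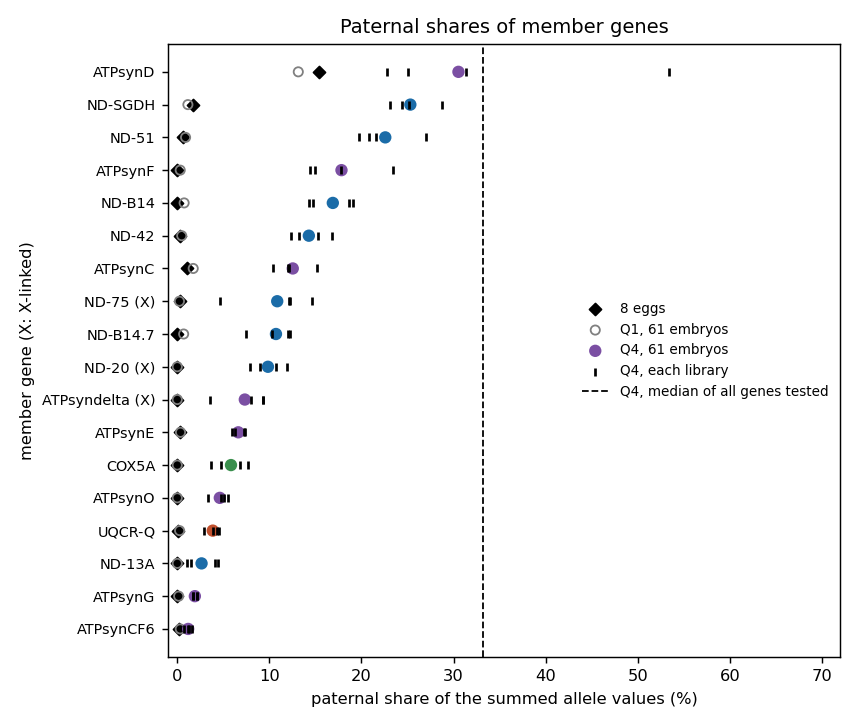
Paternal share of the summed allele values of 18 members in 8 eggs, in Q1 and in Q4 of the order, with ticks for each library in Q4. The dashed line marks the late median of all 2062 genes tested, at 33.1%. All members lie left of it, and eggs lie near 0 except for ATPsynD.

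On the deposited scale, whose normalization is not stated, the maternal value of the same genes was lower late in only some of them. In Q4 this value does not tell RNA supplied by the mother from RNA of the embryo's own maternal allele. With spike-ins the log2 fold change of total counts between Q4 and Q1 lay between -2.70 and -0.011 in these 18. The median of all genes on that scale was -1.49. From Q1 to Q4 the mean maternal value of ND-51 went from 119 to 33.2 while its paternal value went from 1.08 to 9.69. ATPsynC went from 137 to 88.2 in its maternal and from 2.41 to 12.6 in its paternal value. The maternal value of ATPsynCF6 was 804 early and 902 late, and that of ATPsynO 38.8 and 61.3. On the log2 scale of these means the maternal value was lower late in 8 members and higher in 10, with a median of 0.08, and the median of 1971 genes was -0.60. The paternal mean, between 0 and 2.61 in Q1, was higher late in all 18. No share over all genes stands beside this count, so it cannot be read as particular to the members.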

How the data were processed

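Members and gene lists were chosen with earlier results of these data known. Counts are UMI counts per gene as the authors deposited them for each library, and STARsolo is named only in the names of those files. The submitters' processing notes name Trim Galore 0.6.10, SAMtools 1.17, Picard, GATK 4.4.0.0 and R 4.2.1 with the builds dm6 and BDGP6, without roles. The authors deposited a normalized table and an allele table whose values are scores, since the method and unit of their normalization are not given in the sources used here. In both, 0.1 stands for 0. Individuals were joined to wells by the deposited barcode table and placed by the authors' order. CPM was computed over gene UMIs without the 92 spike-ins. Gene names and positions come from BDGP6.54, release 115.

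Genes were tested with edgeR 4.0.16 (TMM, filterByExpr, quasi-likelihood, library as covariate, Benjamini-Hochberg at 0.05), with DESeq2 1.42.0 as an alternative. Alternatives were RLE, library sizes alone, spike-in library sizes, UMI collision correction (ceiling 4096), an order rebuilt by the leading principal component, embryos with at least 500000 UMIs, and each library left out. The labels do not say that individuals share or do not share a mother, so p-values measure the spread between these individuals. Rising and falling were set at a rho of 0.5. Alleles were tested by flipping parental labels within embryos, and genes named were the 5 strongest in each direction and the 3 highest in eggs of each complex. For the eggs against the first 61 embryos, counts of 5429 genes were simulated at the depth of each individual. Both groups were given the gene shares and spread of these embryos, without library differences. In these counts 99% of 2-fold and 92% of 1.5-fold changes were recovered, and 5.45% of calls were false. The spread of the real eggs was not simulated, so recovery in them may differ. No reference table of sequences was used here.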

Additional observations from a re-analysis of the deposited data

Results flagged for a closer look

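Among 62 groups tested for a lone egg far from the others, 6 were found, and chance alone gives about 1 in 20. Of these, 4 rest on the same egg of library 4, the shallowest of the 8 with 278007 UMIs. In it ND-49 was at 46.8 CPM, with the nearest egg at 80.9, and the mean of the eggs is 86.5 with it and 92.2 without it. UQCR-C1 was at 32.4 CPM there, with the nearest egg at 152, and its mean is 155 with and 173 without that egg. COX5B was at 417 CPM, against 607 in the nearest egg. ND-13B was at 0 CPM, against 19.4 in the nearest egg. ATPsynD was highest, at 352 CPM, in another egg of library 4 with 1425000 UMIs, and the nearest egg was at 256. ATPsynG was highest, at 270 CPM, in the egg of library 2, and the nearest egg was at 182. The part of depth in these values was not tested.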

How the results depend on the processing

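Of the tests of single named genes under the alternatives, 474 kept their direction and call, 38 lost the call and 8 changed sign; for allele shares 76 kept both and 2 lost the call. The rebuilt order reversed the last step of ATPsynD (0.26), ND-B14.5B (0.37), ND-20 (0.37) and ND-AGGG (0.37), and with spike-ins ND-MWFE (-0.014), COX7B (-0.13), UQCR-14 (-0.11) and ND-ASHI (-0.068), higher over the order with TMM, were near 0 and not called, as the scaling lowers all genes. With spike-ins 0 members were higher and 4 lower between Q2 and Q1, 0 higher between Q3 and Q2, 2 higher and 20 lower between Q4 and Q3, and 0 higher and 41 lower over the order. Members higher in Q2 numbered 2 with DESeq2, 2 with RLE, 3 in deep embryos and 2 to 6 with a library left out. Of all 6062 genes, 745 were higher in Q2 with DESeq2 and 650 with RLE. Members lower between Q4 and Q3 numbered 14 with library sizes alone, 12 after collision correction, 2 in the rebuilt order, 9 in deep embryos and 3 to 12 with a library left out (12 without library 1, 3 without library 2). Of all genes, 2846 of 6062 were lower in this step with library sizes alone and 2629 of 6075 after collision correction. Over the order 18 members were lower with library sizes alone, against 3669 of 6062 genes. In eggs 1 member was lower with DESeq2, against 193 of 6004 genes, and 0 to 1 with a library left out. The counts of members with a library left out, in deep embryos and in the rebuilt order have no share over all genes beside them. Those counts cannot be read as particular to the members. With the further eggs 28 were higher and 16 lower, against 41.2% and 41.4% of all genes. Rising members numbered 1 in the deposited normalized values and 0 per spike-in UMI, against 999 of 7170 and 632 of 7377 genes. The log2 ratio of Q4 to Q1 per spike-in UMI was -0.40 for complex I, -0.49 for III, -0.32 for IV and -0.80 for V, and in normalized values -0.11, -0.22, 0.015 and -0.51. The cause was not tested.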
